A study of Mus musculus with 6 samples.

Results

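The genes described here encode the enzymes of the tricarboxylic acid (TCA) cycle and of branched-chain amino acid (BCAA) breakdown in muscle. The 37 member genes were taken by symbol from a list of 24 genes of the TCA cycle, pyruvate entry and transamination and 13 genes of BCAA and propionate breakdown, out of 24421 genes in the count files. All 37 were present, and all 37 were among the 14180 genes that passed the filter on low counts. RNA was sequenced from whole gastrocnemius/plantaris (GP) muscle of 5-month-old male mice, whose strain background is labelled B6C3F1 and whose founders were, in the study's methods, mated to C57BL/6N mice. Net39, a protein of the nuclear envelope in muscle, was the targeted gene. The 3 Ctrl mice carried Net39 fl/fl without Cre, and the 3 cKO mice carried HSACreERT2;Net39 fl/fl, in which the human skeletal actin promoter drives a tamoxifen-activated Cre in muscle fibres. Both groups carried the floxed alleles and received tamoxifen 3 months before the muscle was taken.

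The TCA cycle oxidises acetyl-CoA in the mitochondrial matrix and feeds electrons to the respiratory chain. Pyruvate dehydrogenase supplies acetyl-CoA from pyruvate, while pyruvate carboxylase and the aminotransferases refill or drain the intermediates of the cycle. Leucine, isoleucine and valine are broken down to a large part in skeletal muscle, where Bcat2 removes their amino group and the branched-chain ketoacid dehydrogenase complex commits the carbon skeletons to breakdown into acetyl-CoA, acetoacetate or succinyl-CoA.

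Library totals were 33860001 to 38201728 counts in the Ctrl-labelled libraries and 39191239 to 48839910 counts in the cKO-labelled ones, so they did not overlap. Net39, listed as Ppapdc3, had 310, 321 and 217 counts in the Ctrl-labelled libraries and 5365, 4340 and 6080 counts in the cKO-labelled ones. The targeted gene was thus high where the label says cKO (log2 fold change 4.22, standard error [SE] 0.17, edgeR adjusted p = 0.000161). Groups are therefore named by their labels, each direction below follows the labels that Net39 contradicts, and a positive log2 fold change means a higher level under the label cKO. Genes that mark skeletal muscle were abundant in each library, with a sum of 65686 to 66237 CPM, counts scaled to a common library size, over 6 genes in the Ctrl-labelled libraries and 69955 to 91100 CPM in the cKO-labelled ones. The library size was corrected by the TMM factors of edgeR. The labels give separate mice, and p-values measure the spread between them.

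The member genes were called in both directions. Gpt2, Pcx, Idh3a, Suclg1, Bckdk and Sucla2 were higher in the cKO-labelled libraries, and Idh2, Ivd and Mdh1 were higher in the Ctrl-labelled ones, at an adjusted p under 0.05 from the quasi-likelihood test of edgeR. The 6 genes higher in the cKO-labelled libraries were 16.2% of the members, against 12.6% of all genes tested, and the 3 higher in the Ctrl-labelled ones were 8.11%, against 11.8% of all genes tested. The other 28 members did not pass. With a fold change over 2 required as well, Gpt2 alone was higher in the cKO-labelled libraries (2.13% of all genes tested), and Idh2 and Ivd were higher in the Ctrl-labelled ones (3.92%). The groups did not overlap in 12 members that were higher in the cKO-labelled libraries, where 22% of all genes tested did so, and in 4 that were higher in the Ctrl-labelled ones, where 21.9% did so. The median log2 fold change of the members was 0.03, against -0.02 for all genes tested.

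The scaling of the libraries moved this split. When libraries were scaled by total counts alone, the median log2 fold change was -0.27 for all genes tested and -0.22 for the members, and 2 members were then called higher in the cKO-labelled libraries, beside 4.75% of all genes tested, and 9 in the Ctrl-labelled ones, beside 28.7%. Relative to the median of all genes, the members' median was 0.04 with TMM factors and 0.05 with total counts. Leaving out the library labelled Ctrl 3 gave 6 members called higher in the Ctrl-labelled libraries, beside 10.6% of all genes tested. Without Ctrl 1, without Ctrl 2 or without cKO 1, 1 was called there, beside 5.63%, 6.57% and 6.18% of all genes tested. Without Ctrl 1 or without cKO 3, 3 members were called higher in the cKO-labelled libraries, beside 5.33% and 5.34% of all genes tested. The libraries also differed in fibre markers, whose part in these differences was not tested. The summed CPM of 9 slow fibre markers was 8588 to 14742 in the Ctrl-labelled libraries and 468 to 3926 in the cKO-labelled ones, and that of 7 type IIb fibre markers was 54126 to 91317 and 143156 to 183635.

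The summed CPM of the 37 members was 12906, 12786 and 10527 in the Ctrl-labelled libraries and 11784, 11983 and 11480 in the cKO-labelled ones. The groups overlapped, with the lowest value in the library labelled Ctrl 3, and the ratio of the means was 0.973 (exact two-sided permutation test, p = 0.8). The 24 TCA cycle, pyruvate and transamination members showed a median of 0.08 on the log2 scale. Of these, 5 (20.8%) were called higher in the cKO-labelled libraries and 2 (8.33%) in the Ctrl-labelled ones. Among all genes tested, these shares were 12.6% and 11.8%. For the 13 BCAA and propionate members the median was -0.03, with 1 gene (7.69%) called in each direction. The lists were not tested against each other. The plot of log2 fold changes by role shows that the called members were spread over several role groups, some of which held more than a single called gene.

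**Figure D1:**
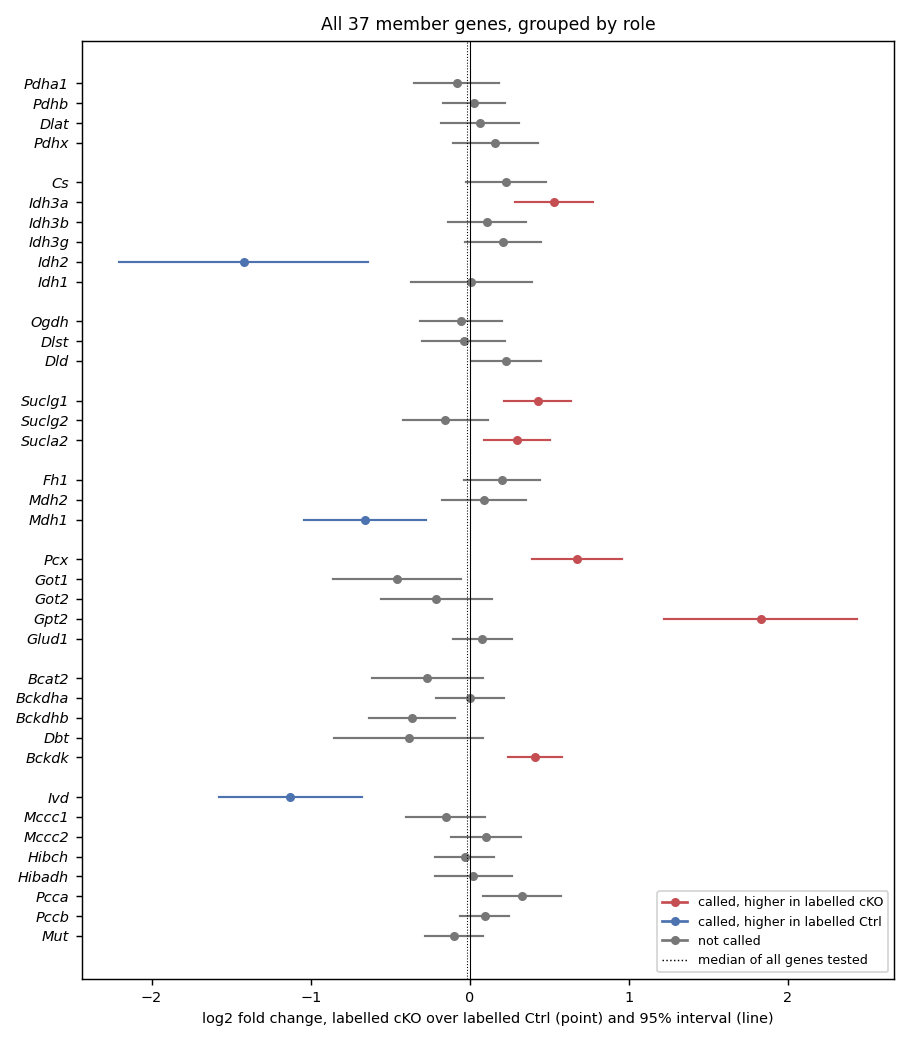
Log2 fold changes of the 37 member genes, labelled cKO over labelled Ctrl, with 95% intervals from edgeR (lines), in groups from pyruvate dehydrogenase at the top to the distal BCAA and propionate steps at the bottom. Red marks the 6 genes called higher in the cKO-labelled libraries and blue the 3 called higher in the Ctrl-labelled ones, and the grey genes, at log2 fold changes of -0.46 to 0.33, were not called.

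The 9 called members lie on 8 chromosomes of GRCm38 (mm10). Gpt2 spans chr8:85492576-85527560, Pcx chr19:4510472-4621752, Idh3a chr9:54586334-54604661, Suclg1 chr6:73248382-73276911, Sucla2 chr14:73525319-73596142 and Ivd chr2:118861954-118882909, all on the plus strand. Bckdk (chr7:127904082-127910221, plus strand) and Idh2 (chr7:80094846-80115392, minus strand) share chromosome 7, and Mdh1 spans chr11:21556787-21572367 on the minus strand. In GENCODE M21 their exons overlap no other gene except in Mdh1, which shares 2.03% of its exon bases with Wdpcp on the opposite strand. The use of strand in counting is not given in the sources used here, so reads in shared exons cannot be told apart.

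The sequences upstream of the 4 called members with the largest absolute log2 fold changes are shown so that their promoter contexts can be compared. They come from RefSeq on GRCm38.p6, run 5′ to 3′ on the strand of the gene, and stop before the annotated start of the gene, and capitals mark the GC box GGGCGG on either strand.
Gpt2, chr8:85492326-85492575, plus strand: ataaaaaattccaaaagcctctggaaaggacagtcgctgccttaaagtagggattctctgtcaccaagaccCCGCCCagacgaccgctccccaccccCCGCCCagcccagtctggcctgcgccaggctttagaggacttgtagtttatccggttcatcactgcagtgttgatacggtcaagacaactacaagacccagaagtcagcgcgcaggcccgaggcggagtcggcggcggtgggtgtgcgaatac
Pcx, chr19:4510222-4510471, plus strand: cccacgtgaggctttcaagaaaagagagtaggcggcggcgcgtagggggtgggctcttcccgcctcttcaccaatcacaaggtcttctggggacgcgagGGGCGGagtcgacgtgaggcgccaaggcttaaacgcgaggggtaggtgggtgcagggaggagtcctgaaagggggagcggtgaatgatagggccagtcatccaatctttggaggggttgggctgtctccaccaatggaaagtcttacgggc
Idh2, chr7:80115393-80115600, minus strand: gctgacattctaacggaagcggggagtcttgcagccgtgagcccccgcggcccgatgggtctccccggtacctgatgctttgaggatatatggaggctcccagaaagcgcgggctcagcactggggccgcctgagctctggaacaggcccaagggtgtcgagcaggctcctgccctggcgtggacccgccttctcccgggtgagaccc
Ivd, chr2:118861744-118861953, plus strand: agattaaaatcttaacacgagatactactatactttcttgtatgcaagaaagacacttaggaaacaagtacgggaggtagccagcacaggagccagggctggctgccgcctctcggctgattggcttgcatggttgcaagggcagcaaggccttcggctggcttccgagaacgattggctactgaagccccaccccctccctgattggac
The Gpt2 stretch holds 2 GC boxes and the Pcx stretch 1, and the Idh2 and Ivd stretches hold 0. Pcx has another promoter entry, not shown, whose window (chr19:4594069-4594318) holds no GC box. The full window of Idh2 has 2 GC boxes within its last bases, which are left out above because they lie inside the annotated gene. RefSeq promoter entries were found for 34 of the 37 members. In the 250 bases before the start, on both strands, the GC box was present in 52.3% of the 44 member entries and in 32.7% of all 32851 entries. The letters GCGCANGCG (the NRF1 core) were present in 11.4% of member entries, Sucla2 among them, and in 5.16% of all entries, with 2 of the 5 member entries overlapping entries of Ogdh. The letters TGATGNAA (ATF4) were present in 2.27% against 3.45%. TGACGTCA (the CRE) was present in 9.09% of member entries against 1.55% of all, and overlapping entries of the same gene, Ogdh, made up 3 of the 4 entries. TCAAGGTCA (ERR) and CTAAAAATA (MEF2) were in 0 member entries and in 0.387% and 0.469% of all entries. These matches are descriptions of letters, and no factor binding was measured.

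Entry of pyruvate through the pyruvate dehydrogenase complex was examined next. Of its 4 genes, 0 were called by edgeR, 0 had an unadjusted p under 0.05 and 0 were called by DESeq2. Pdha1 and Pdhb, the subunits of its decarboxylase, had log2 fold changes of -0.08 (95% interval -0.35 to 0.18) and 0.03 (-0.17 to 0.22), and Dlat, the acetyltransferase, and Pdhx, which binds the dihydrolipoamide dehydrogenase to the complex, had 0.06 and 0.16. The summed CPM of the 4 genes overlapped between the groups (exact two-sided permutation test, p = 0.8). Pdha1 shares 16.1% of its exon bases with Map3k15.

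Pcx encodes pyruvate carboxylase, which makes oxaloacetate from pyruvate and so refills the cycle. It had 79.4, 83.1 and 85.5 CPM in the Ctrl-labelled libraries and 153, 111 and 131 CPM in the cKO-labelled ones. Each cKO-labelled library lay above each Ctrl-labelled library, and the spread was wider in the cKO-labelled libraries. Pcx differed by a log2 fold change of 0.67 with an SE of 0.12 (adjusted p = 0.00952), and its call held in each of the 13 alternatives tried.

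Gpt2, the mitochondrial alanine aminotransferase, which interconverts pyruvate and glutamate with alanine and 2-oxoglutarate, differed most among the members. Its values were 98.5, 128 and 135 CPM in the Ctrl-labelled libraries and 564, 277 and 441 CPM in the cKO-labelled ones. The lowest cKO-labelled library was above the highest Ctrl-labelled library, and the cKO-labelled libraries differed widely from each other. Gpt2 was 3.55-fold higher in the cKO-labelled libraries (log2 fold change 1.83, SE 0.26, adjusted p = 0.00505), and the call held in each of the 13 alternatives. The other aminotransferases of the list, which move amino groups between aspartate and glutamate, did not pass. Got1, the cytosolic enzyme, had 656, 652 and 427 CPM in the Ctrl-labelled libraries and 415, 446 and 401 CPM in the cKO-labelled ones. The library labelled Ctrl 3 fell within the range of the cKO-labelled ones, and the log2 fold change was -0.46 (adjusted p = 0.0921). Without that library the adjusted p of Got1 was 0.00783, with total counts 0.0257 and with DESeq2 0.0495. Got2, the mitochondrial enzyme, had a log2 fold change of -0.21 (adjusted p = 0.333), which leaving out Ctrl 3 moved to -0.36 (0.0309), and Glud1, glutamate dehydrogenase, had 0.08.

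**Figure D2:**
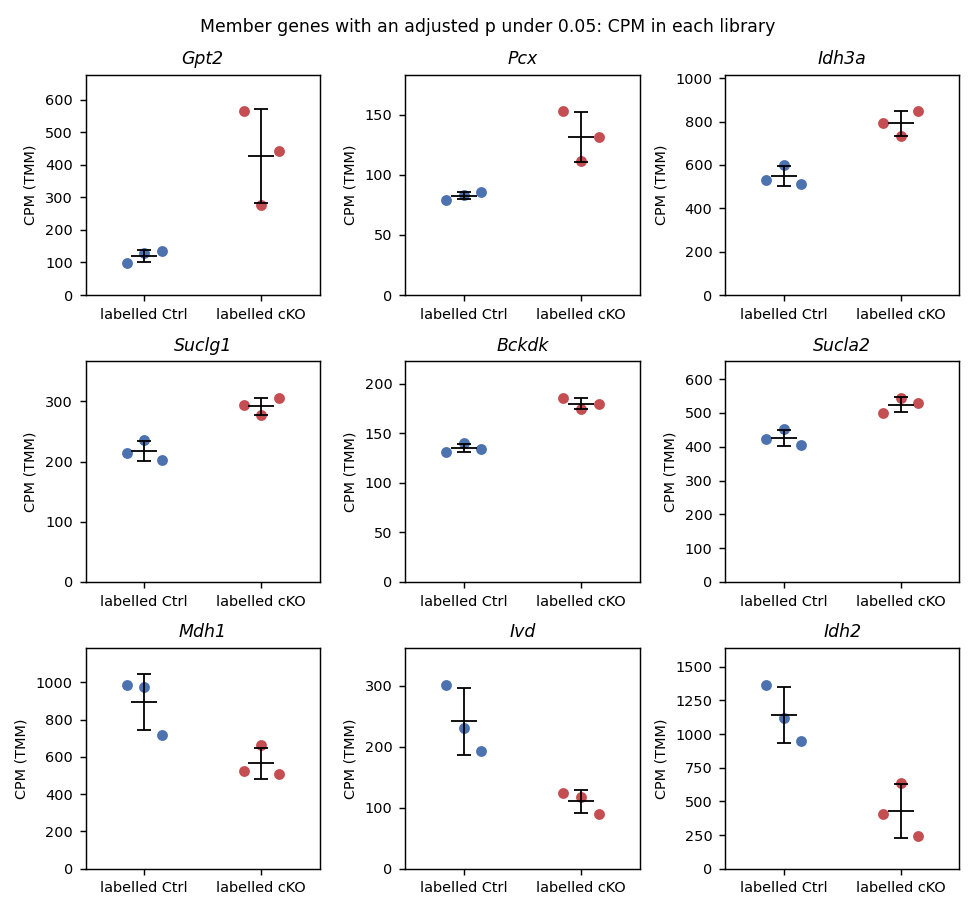
CPM (TMM-scaled, linear axis from 0) of the 9 called members in each library, with points for libraries and bars for mean ± SD (n = 3). In each of the 9 genes the cKO-labelled libraries lay entirely above or below the Ctrl-labelled ones, with the widest gap relative to the level in Gpt2.

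From citrate to 2-oxoglutarate, genes of the isocitrate dehydrogenases moved in opposite directions. Idh3a encodes the catalytic subunit of the NAD-linked enzyme of the cycle. It had 531, 599 and 513 CPM in the Ctrl-labelled libraries and 793, 733 and 847 CPM in the cKO-labelled ones. The groups were well apart, and the log2 fold change was 0.53 (SE 0.10, adjusted p = 0.0132). Its adjusted p was 0.0532 without the library labelled Ctrl 1, 0.0627 without cKO 3 and 0.0647 with total counts.

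The other subunits of the same enzyme did not pass. Idh3b had 478, 485 and 399 CPM in the Ctrl-labelled libraries and 465, 500 and 503 CPM in the cKO-labelled ones, with overlap (log2 fold change 0.11, adjusted p = 0.481). Idh3g had 314, 323 and 261 CPM against 334, 351 and 352 CPM, with the groups apart (0.21, adjusted p = 0.18). Cs, citrate synthase, which starts the cycle, had a log2 fold change of 0.23 (95% interval -0.02 to 0.48, adjusted p = 0.161).

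Idh2 encodes the mitochondrial NADP-linked isocitrate dehydrogenase, a source of matrix NADPH. It had 1364, 1119 and 947 CPM in the Ctrl-labelled libraries and 404, 636 and 240 CPM in the cKO-labelled ones. The groups did not overlap, but the cKO-labelled libraries differed from each other by more than the closest libraries of the groups did. Idh2 was 2.68-fold higher in the Ctrl-labelled libraries (log2 fold change -1.42, SE 0.33, adjusted p = 0.0233). The adjusted p was 0.0778 without the library labelled Ctrl 1, 0.0623 without Ctrl 2 and 0.0815 without cKO 1, with the log2 fold change between -1.85 and -1.15 over the alternatives. Idh1, the cytosolic NADP-linked enzyme, was low in both groups, at 19.2 to 27.3 CPM and 19.9 to 26.1 CPM (log2 fold change 0.01).

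The 2-oxoglutarate dehydrogenase complex, which makes succinyl-CoA, had 0 of 3 genes called by edgeR and by DESeq2, and 1 (Dld) at an unadjusted p under 0.05. Ogdh, its decarboxylase, and Dlst, its succinyltransferase, had log2 fold changes of -0.06 (95% interval -0.31 to 0.20) and -0.04 (-0.30 to 0.22). Dld, the dihydrolipoamide dehydrogenase that this complex shares with pyruvate dehydrogenase and the branched-chain complex, was between 256 and 286 CPM in the Ctrl-labelled libraries and between 295 and 344 CPM in the cKO-labelled ones. The groups were apart, and the log2 fold change was 0.23 (adjusted p = 0.12).

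Succinyl-CoA ligase, which makes succinate with the gain of a nucleoside triphosphate, consists of a common alpha subunit (Suclg1) paired with an ATP-linked (Sucla2) or a GTP-linked (Suclg2) beta subunit. Suclg1 had 214, 235 and 203 CPM in the Ctrl-labelled libraries and 294, 277 and 306 CPM in the cKO-labelled ones. Sucla2 had 422, 453 and 406 CPM in the Ctrl-labelled libraries and 500, 544 and 529 CPM in the cKO-labelled ones. In both genes all cKO-labelled libraries were above all Ctrl-labelled libraries, with log2 fold changes of 0.43 (SE 0.09, adjusted p = 0.0165) for Suclg1 and 0.30 (SE 0.09, adjusted p = 0.0469) for Sucla2. Suclg2 had 94.7, 88.1 and 80.0 CPM against 79.7, 88.2 and 68.3 CPM, with overlap (log2 fold change -0.15, adjusted p = 0.352). The call of Sucla2 was lost in each of the 6 fits that left out a library, with an adjusted p of up to 0.161 without cKO 3, and with total counts its log2 fold change was 0.04. That of Suclg1 was lost without Ctrl 1 (adjusted p = 0.0625), without cKO 1 (0.0603), without cKO 3 (0.0756) and with total counts (0.174). The sum of the 3 genes was 731, 776 and 689 CPM in the Ctrl-labelled libraries and 873, 910 and 903 CPM in the cKO-labelled ones (exact permutation test, two-sided, p = 0.1, the smallest p that 3 libraries against 3 allow).

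Among the last steps of the cycle, Mdh1, the cytosolic malate dehydrogenase of the malate-aspartate shuttle, was the called gene. Its values were 985, 975 and 718 CPM in the Ctrl-labelled libraries and 525, 662 and 511 CPM in the cKO-labelled ones. The highest cKO-labelled library came close to the lowest Ctrl-labelled library without reaching it. Mdh1 had a log2 fold change of -0.66 (SE 0.16, adjusted p = 0.0273), and the adjusted p was 0.0891 to 0.0988 without Ctrl 1, without Ctrl 2, without cKO 1 or without cKO 3. Mdh2, the mitochondrial malate dehydrogenase of the cycle itself, had 835, 866 and 690 CPM against 873, 817 and 851 CPM. Those values overlapped (log2 fold change 0.09, 95% interval -0.18 to 0.35). Fh1, fumarase, had a log2 fold change of 0.20 (adjusted p = 0.187).

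In BCAA breakdown, Bckdk and Ivd were called. Bckdk is the kinase that phosphorylates and inhibits the branched-chain ketoacid dehydrogenase complex. It had 131, 140 and 134 CPM in the Ctrl-labelled libraries and 185, 174 and 179 CPM in the cKO-labelled ones. The libraries of each group lay close together and the groups well apart, with a log2 fold change of 0.41 (SE 0.07, adjusted p = 0.00918). Of the alternatives, total counts alone ended the call (log2 fold change 0.15, adjusted p = 0.137).

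The genes of the complex that this kinase acts on were not called. Bckdha, a subunit of its decarboxylase, had 169, 172 and 149 CPM in the Ctrl-labelled libraries and 157, 176 and 157 CPM in the cKO-labelled ones (log2 fold change 0.00, 95% interval -0.21 to 0.22). Bckdha shares 61.7% of its exon bases with B3gnt8, so its counts are uncertain. Bckdhb, the partner subunit, had 32.5, 33.6 and 30.2 CPM against 26.4, 27.6 and 20.9 CPM, with the groups apart (-0.36, adjusted p = 0.0594), and its adjusted p was 0.0401 without cKO 2 and 0.0158 with total counts. Dbt, the acyltransferase core, had 58.1, 49.2 and 33.0 CPM against 40.3, 35.4 and 31.9 CPM, with overlap (-0.38, adjusted p = 0.201), and its adjusted p was 0.0235 without Ctrl 3 and 0.0474 with total counts. Bcat2, the mitochondrial branched-chain aminotransferase that opens the pathway, had a log2 fold change of -0.27 (adjusted p = 0.226, and 0.0459 with total counts) and shares 15.9% of its exon bases with an antisense gene.

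Ivd encodes isovaleryl-CoA dehydrogenase, which acts on the carbon skeleton of leucine after the branched-chain complex. It had 302, 230 and 194 CPM in the Ctrl-labelled libraries and 125, 118 and 89.3 CPM in the cKO-labelled ones. Each Ctrl-labelled library was above each cKO-labelled library. Ivd was 2.19-fold higher in the Ctrl-labelled libraries (log2 fold change -1.13, SE 0.19, adjusted p = 0.00835), and the call held in each of the 13 alternatives. The next enzyme of leucine breakdown, methylcrotonyl-CoA carboxylase, did not move with it by the test, as Mccc1 and Mccc2 had log2 fold changes of -0.15 and 0.10, and with total counts the adjusted p of Mccc1 was 0.0371. The difference between Ivd and these genes was not tested.

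The member genes of valine breakdown and of propionate use did not pass in edgeR with TMM factors. Hibch and Hibadh, which act in turn on the valine intermediate 3-hydroxyisobutyryl-CoA and its acid, had log2 fold changes of -0.03 and 0.02. Pcca and Pccb, the subunits of propionyl-CoA carboxylase, had 0.33 (adjusted p = 0.0603) and 0.09 (0.332), with the groups apart in both, and DESeq2 called Pcca (adjusted p = 0.0377). Mut, the mutase that turns methylmalonyl-CoA into succinyl-CoA, had -0.10, and its adjusted p was 0.0379 with total counts. The summed CPM of the 8 distal BCAA and propionate genes was 824, 728 and 654 in the Ctrl-labelled libraries and 622, 650 and 573 in the cKO-labelled ones. These sums did not overlap, with a ratio of the means of 0.837 (exact permutation test, two-sided, p = 0.1, the smallest possible). Without Ivd, a sum taken after the values were seen, the other 7 genes had 522, 498 and 460 CPM in the Ctrl-labelled libraries and 497, 532 and 484 CPM in the cKO-labelled ones, which overlapped, with a ratio of 1.02.

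Ratios of partner genes within a library need no scaling between libraries, and 10 such pairs were compared. The mitochondrial over cytosolic malate dehydrogenase ratio, Mdh2/Mdh1, was 0.848, 0.888 and 0.961 in the Ctrl-labelled libraries and 1.66, 1.23 and 1.67 in the cKO-labelled ones. Mdh1 therefore had more counts than Mdh2 in each Ctrl-labelled library and fewer in each cKO-labelled library. Idh2/Idh1 was 66.5, 41.0 and 49.4 against 18.8, 32.0 and 9.19. Sucla2/Suclg2 was 4.46, 5.14 and 5.07 against 6.27, 6.17 and 7.74. The ATP-linked beta subunit thus predominated in counts in each library, and more so in the cKO-labelled ones. Got2/Got1 was 1.25, 1.19 and 1.31 against 1.49, 1.40 and 1.53, and Idh3a/Idh3g was 1.69, 1.86 and 1.97 against 2.38, 2.09 and 2.41. Bckdk/Bckdha was 0.779, 0.812 and 0.900 against 1.18, 0.987 and 1.14. The groups did not overlap in these 6 ratios, which changed by factors of 1.68 (Mdh2/Mdh1), 0.345 (Idh2/Idh1), 1.37 (Sucla2/Suclg2), 1.18 (Got2/Got1), 1.25 (Idh3a/Idh3g) and 1.33 (Bckdk/Bckdha). For each, the exact two-sided permutation p was 0.1, the smallest possible, and 0.167 adjusted over the 10 pairs, so none could pass. The ratios Pdha1/Pdhb, Ogdh/Pdha1, Mccc1/Mccc2 and Pcca/Pccb overlapped between the groups, with factors of 0.930, 1.02, 0.846 and 1.17. Each of the 6 ratios without overlap except Got2/Got1 holds a called member, so they partly repeat those calls. Of all genes tested singly, 22% lay without overlap higher in the cKO-labelled libraries and 21.9% higher in the Ctrl-labelled ones. The share of other gene pairs without overlap was not computed.

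**Figure D3:**
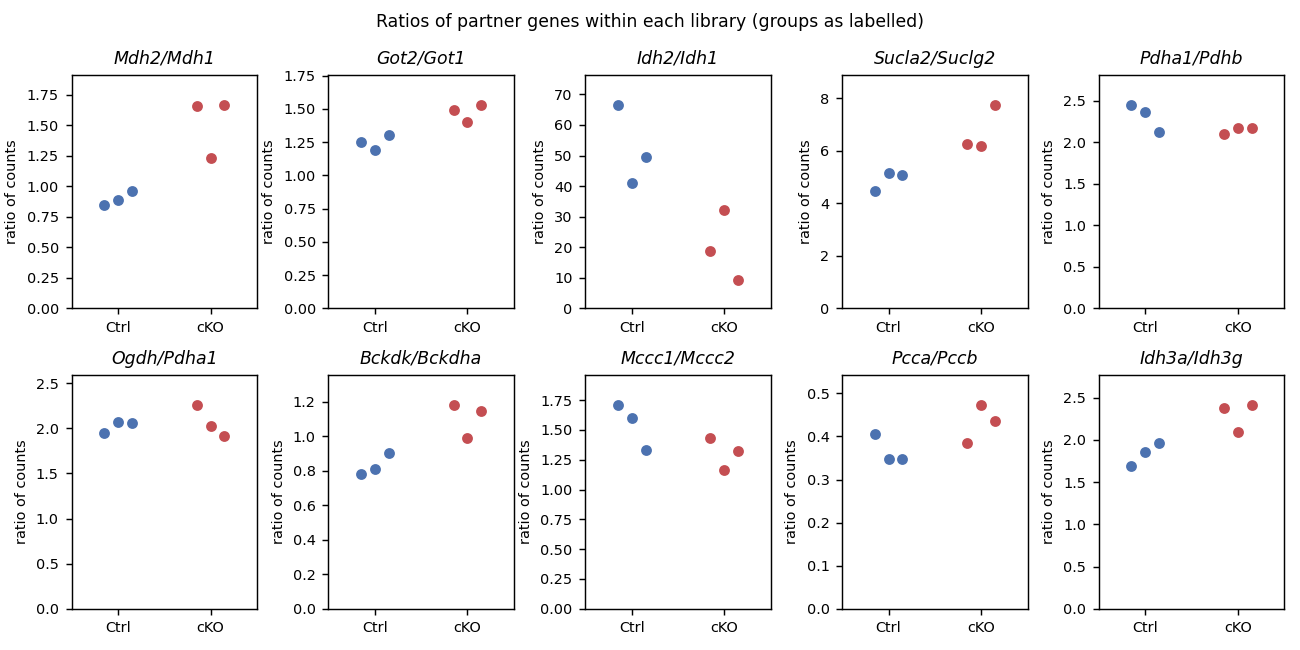
Ratios of the counts of 10 pairs of partner genes in each library, on linear axes from 0, with a point for each of the 3 Ctrl-labelled (blue) and 3 cKO-labelled (red) libraries. Mdh2/Mdh1 lay below 1 in each Ctrl-labelled library and above 1 in each cKO-labelled library, and 6 of the 10 ratios did not overlap between the groups. Each of these 6 except Got2/Got1 holds a called member, and the share of other gene pairs without overlap was not computed.

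Levels of the member genes were set side by side per length, as CPM per kilobase of merged exons of GENCODE M21. In the Ctrl-labelled libraries, Idh2 had the highest level of the 37 members at 442 ± 81.0 (SD, n = 3), followed by Mdh1 at 348 ± 59.0. Ogdh at 234 ± 22.0, Got1 at 228 ± 51.7 and Mdh2 at 224 ± 26.4 came next and did not differ from each other beyond their spread. In the cKO-labelled libraries the order began with Mdh2 at 238 ± 7.91, Ogdh at 226 ± 11.3 and Mdh1 at 221 ± 32.6, which lay within their spread of each other. Idh2 had moved from rank 1 to rank 6, at 165 ± 76.9, and Gpt2 from rank 26 (21.3 ± 3.41) to rank 16 (75.8 ± 25.5). Pcx moved from rank 30 to rank 24 and Ivd from rank 19 to rank 27. Mccc1 had the lowest level per length in both groups, at 4.11 ± 0.503 and 3.70 ± 0.243. Its rank depends on its merged exons, which at 10952 bases are the longest of the 37 members. Without the length, Idh1 had the lowest mean CPM in both groups, at 22.3 and 22.5, where Mccc1 had 45.0 and 40.5. Even the lowest member count in a library, 701 for Idh1, was far above the filter on low counts.

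Other genes of the same pathways, 51 in all, were tested in the same fit. Of these, 9 (17.6%) were called higher in the cKO-labelled libraries and 6 (11.8%) in the Ctrl-labelled ones, beside 12.6% and 11.8% of all genes tested. With a fold change over 2, 2 were called higher in the cKO-labelled libraries and 3 in the Ctrl-labelled ones, beside 2.13% and 3.92% of all genes tested. With total counts, 4 and 19 were called, beside 4.75% and 28.7% of all genes tested.

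Of the 28 other TCA cycle and pyruvate genes, 6 (21.4%) were called higher in the cKO-labelled libraries and 2 (7.14%) in the Ctrl-labelled ones. Among all genes tested, these shares were 12.6% and 11.8%. Me1, the cytosolic malic enzyme, which makes pyruvate and NADPH from malate, had 101, 130 and 178 CPM in the Ctrl-labelled libraries and 469, 377 and 394 CPM in the cKO-labelled ones. The groups were far apart, and Me1 was 3.03-fold higher in the cKO-labelled libraries (adjusted p = 0.00394). Me3, a mitochondrial malic enzyme, had a log2 fold change of 0.60 (adjusted p = 0.00874). Ldha, the lactate dehydrogenase subunit typical of fast muscle, had 1.14 (SE 0.19, adjusted p = 0.00777), and Ldhb, the subunit typical of heart and oxidative muscle, had -1.61 (SE 0.40, adjusted p = 0.0268). Ldhb was at 894, 807 and 553 CPM in the Ctrl-labelled libraries and at 221, 392 and 126 CPM in the cKO-labelled ones. The lactate dehydrogenase genes thus differed in opposite directions, without overlap between the groups for Ldhb, whose call was lost without Ctrl 1 (adjusted p = 0.0854), without Ctrl 2 (0.0745) and without cKO 1 (0.0930).

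Of the kinases of pyruvate dehydrogenase, Pdk1 was higher in the Ctrl-labelled libraries (log2 fold change -0.65, adjusted p = 0.0140) and Pdk2 in the cKO-labelled ones (0.45, adjusted p = 0.0153). The call of Pdk1 was lost without Ctrl 1 (adjusted p = 0.0538) and without cKO 1 (0.0516), and that of Pdk2 without Ctrl 1 (0.0579), without Ctrl 2 (0.0506), without cKO 1 (0.0586), without cKO 3 (0.0639) and with total counts (0.101). Pdpr, a regulatory subunit of the pyruvate dehydrogenase phosphatase, had 0.73 (adjusted p = 0.00714). Pdk4, the kinase raised by fasting, had 2755, 983 and 1026 CPM in the Ctrl-labelled libraries and 970, 772 and 1109 CPM in the cKO-labelled ones. The library labelled Ctrl 1 stood alone at the high value, and the gene was not called (-0.74, adjusted p = 0.217). Pdk4 lies outside the naming rule and was chosen after its values were seen.

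Of the 23 other BCAA genes, 3 (13%) were called higher in the cKO-labelled libraries and 4 (17.4%) in the Ctrl-labelled ones. Among all genes tested, these shares were 12.6% and 11.8%. Abat, which transaminates GABA and beta-alanine and serves valine-derived semialdehydes, had the largest change of the 51 genes. Its values were 31.4, 37.8 and 27.7 CPM in the Ctrl-labelled libraries and 5.22, 6.93 and 2.41 CPM in the cKO-labelled ones. The lowest Ctrl-labelled library was well above the highest cKO-labelled library (log2 fold change -2.74, SE 0.35, adjusted p = 0.00368). Bdh1, the ketone body enzyme 3-hydroxybutyrate dehydrogenase, had -1.57 (adjusted p = 0.0192) and Mcee, methylmalonyl-CoA epimerase, had -0.59 (adjusted p = 0.0170). Both of the last calls were lost without Ctrl 1, without Ctrl 2, without cKO 1 and without cKO 3, with adjusted p-values of up to 0.0724 for Bdh1 and 0.0664 for Mcee. Slc25a44, the mitochondrial BCAA carrier, had 0.42 (adjusted p = 0.0124) and Slc43a1, a large neutral amino acid transporter, had 0.54 (adjusted p = 0.0263). The call of Slc25a44 was lost without Ctrl 1 (adjusted p = 0.0538) and with total counts (0.145), and that of Slc43a1 without Ctrl 2 (0.0864), without Ctrl 3 (0.0543), without cKO 1 (0.0965), without cKO 3 (0.0922) and with total counts (0.158). The other amino acid carrier genes of the list, Slc7a5 and Slc3a2, were not called (-0.44, adjusted p = 0.0945, and -0.05, adjusted p = 0.713), and they lie outside the naming rule and were chosen after their values were seen. The remaining 3 called genes, Mmadhc (0.26, adjusted p = 0.0369), Lias (0.26, adjusted p = 0.0482) and Acad8 (-0.22, adjusted p = 0.0439), were likewise named after their values were seen. Mmadhc acts in cobalamin handling, Lias makes lipoic acid and Acad8 oxidises the valine intermediate isobutyryl-CoA. Each of these 3 calls was lost in at least 8 of the 13 alternatives.

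Markers of fibre type and of other cells were compared between the labelled groups. All 9 slow fibre markers had negative log2 fold changes (median -2.38), and 4 were called. By library, their summed CPM was 14742, 8773 and 8588 in the Ctrl-labelled libraries and 2052, 3926 and 468 in the cKO-labelled ones. Myh7, the slow myosin heavy chain gene, had 3676, 1723 and 2219 CPM against 494, 974 and 75.3 CPM (log2 fold change -2.30, adjusted p = 0.0742). The summed slow signal thus did not overlap between the groups and also differed within each group, by 8.39-fold between the highest and lowest cKO-labelled libraries and 1.72-fold between the Ctrl-labelled ones, although on the CPM scale the SD was larger in the Ctrl-labelled libraries (3500 against 1731 CPM). All 7 type IIb fibre markers were called higher in the cKO-labelled libraries. Myh4, the type IIb myosin heavy chain gene, had 15349, 24649 and 36565 CPM against 80134, 57352 and 72862 CPM (log2 fold change 1.46, adjusted p = 0.0213). Both markers of type IIa and IIx fibres were called higher in the Ctrl-labelled libraries.

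Of 10 immune markers 9 were tested, and all 9 had negative log2 fold changes, with 6 called and sums of 172 to 195 CPM against 77.7 to 110 CPM. Of 7 markers of fibro-adipogenic progenitors, 3 were called higher in the Ctrl-labelled libraries, with sums of 1166 to 1385 CPM against 829 to 1374 CPM. Another 3 of these markers, Dcn, Smoc2 and Col1a1, had positive log2 fold changes and were not called. Of 6 Schwann cell markers, 1 was called higher there, with sums of 142 to 207 CPM against 81.1 to 131 CPM. Of 6 endothelial markers, 0 were called by edgeR or DESeq2 and 1 had an unadjusted p under 0.05, with sums of 390 to 403 CPM against 350 to 389 CPM. Of 6 adipocyte markers, 0 passed any of these, with sums of 25.0 to 76.3 CPM against 31.9 to 74.5 CPM. No tested marker of these lists was at 0 counts in all libraries of a group. In whole muscle, fewer cells of a type and less RNA per cell cannot be told apart. The part of these markers in the differences of Idh2, Mdh1, Ivd, Gpt2 and the other called genes was not tested.

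Within the groups, the order of the libraries was compared with that of the fibre markers, a look chosen after the values were seen. The library labelled Ctrl 3 had the lowest CPM of the Ctrl-labelled libraries in 32 of the 37 members (86.5%), against 35.3% of all genes tested. Idh2, Mdh1, Got1, Got2, Suclg2, Hibadh and Mut, 7 of the 37 members, had the same order of libraries in both groups as the summed slow fibre markers. So had Ldhb, Bdh1 and Pdk1 among the called other pathway genes, and 3.64% of all genes tested. Gpt2 and Pcx, 2 of the 37 members, had the same order in both groups as Myh4, and so had Me1 and Ldha. This order was found in 5.26% of all genes tested, about the share among the members. Ivd, Idh3a, Suclg1, Sucla2 and Bckdk had neither order. With Myh7 alone, 0 of the 37 members shared the order in both groups, against 2.26% of all genes tested.

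**Figure D4:**
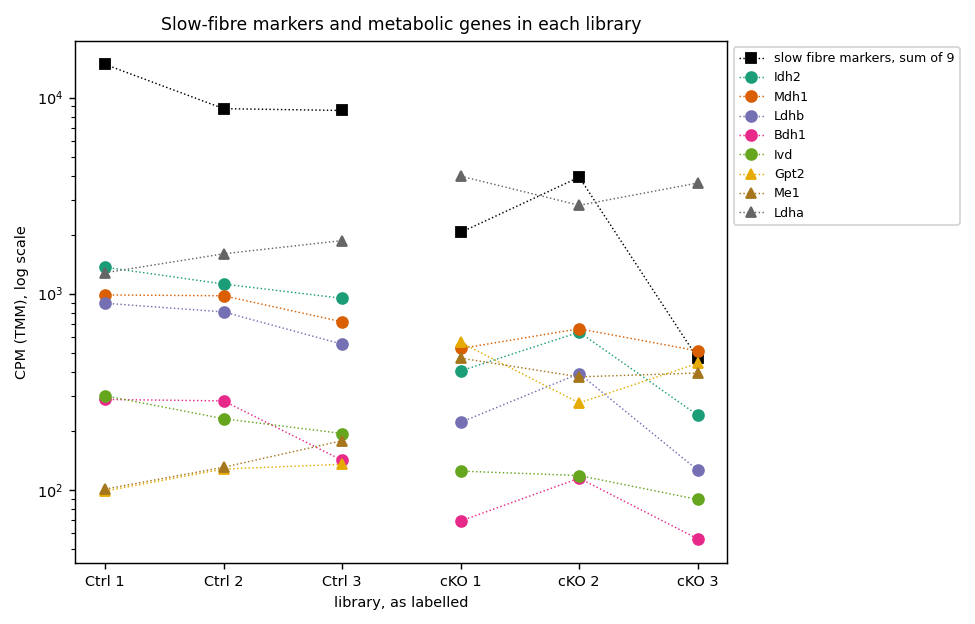
CPM (TMM-scaled, log axis) of the summed slow fibre markers (squares) and of 8 member or other pathway genes in each library, with dotted lines joining the libraries of a group only to guide the eye. Idh2, Mdh1, Ldhb and Bdh1 were highest in cKO 2 and lowest in cKO 3 among the cKO-labelled libraries, as the slow markers were, whereas Gpt2, Me1 and Ldha were lowest in cKO 2. Ivd was highest in cKO 1 and lowest in cKO 3. The order of the slow markers in both groups was shared by 3.64% of all genes tested, and that of Myh4, not drawn here, by 5.26%.

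Beside these pathways, neighbouring energy pathways are given by their counts alone. Of 18 respiratory chain genes, 0 were called in either direction by edgeR, at an unadjusted p under 0.05 or by DESeq2, with a median log2 fold change of 0.08. Of 16 fatty acid oxidation genes, 1 (Cpt1b, which admits long-chain fatty acids to mitochondria) was called higher in the Ctrl-labelled libraries, with a median of -0.15. Cpt1b had the lowest level of these 16 genes. It was at 3.45 to 6.05 CPM in the Ctrl-labelled libraries and 2.48 to 2.78 CPM in the cKO-labelled ones. Of 12 glycolysis genes, Ldha among them, 8 were called higher in the cKO-labelled libraries and 0 in the Ctrl-labelled ones, with a median of 0.78. Differences between these lists and the member genes were not tested.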

How the data were processed

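GP muscle RNA-Seq comprised 3 Ctrl-labelled and 3 cKO-labelled libraries. For each library the authors deposited raw gene counts, whole numbers without normalization. Per the labels and the study's methods, reads were checked with FastQC 0.11.8, trimmed with Trimmomatic 0.39, aligned to mm10 with HISAT2 2.1.0 and counted with featureCounts 1.6.2. The annotation and the strand setting are not given in the sources used here.

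The test of the counts used edgeR 4.0.16 in R 4.3.3 (TMM factors, filterByExpr, glmQLFit, glmQLFTest, Benjamini-Hochberg adjustment over 14180 genes), and genes with an adjusted p under 0.05 were called. The study's methods used DESeq and a fold change over 2 as well, so this count is given beside it. Standard errors were derived from the F statistic. Sums and ratios were tested by exact permutation, two-sided. The fitting steps were tested on simulated data.

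The member genes, gene lists and tests were chosen with earlier results of these data known. Values in every library are given for called members and for uncalled subunits of a complex with a called subunit, and of the other pathway genes the 12 called with the smallest p are named. Alternatives were total counts, the size factors of DESeq2, a minimum of 10 counts in every library, no filter, the Wald test of DESeq2 1.42.0, the mouse number as a block, a robust fit and each library left out. The alternatives for the other pathway genes were added after their calls were seen. Positions and exon lengths come from GENCODE M21. Protein sequences were not used here.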

Additional observations from a re-analysis of the deposited data

How the results depend on the processing

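With 3 libraries a group, calls near the threshold depended on single libraries, and the cause was not tested. Members called higher in the cKO-labelled libraries numbered 2 with total counts, 1 with a fold change over 2 and 3 to 5 with a library left out, and those called higher in the Ctrl-labelled libraries numbered 9 with total counts and 1 to 6 with a library left out. For the other pathway genes, those called higher in the cKO-labelled libraries numbered 4 with total counts, 2 with a fold change over 2 and 5 to 7 with a library left out, and those called higher in the Ctrl-labelled libraries numbered 19, 3 and 1 to 10. With a library left out, 5.33% to 12.3% of all genes tested were called higher in the cKO-labelled libraries and 5.46% to 12.5% in the Ctrl-labelled ones, with total counts 4.75% and 28.7%, and at a fold change over 2 these shares were 2.13% and 3.92%. The members' median log2 fold change was -0.22 with total counts and -0.030 to 0.094 with a library left out, and the ratio of summed CPM was 0.816 and 0.916 to 1.009. With total counts, which lower the median of all genes to -0.27, uncalled members changed sign: Pdhb (-0.22), Dlat (-0.19), Pdhx (-0.089), Cs (-0.031), Idh3b (-0.14), Idh3g (-0.046), Idh1 (-0.25), Dld (-0.023), Fh1 (-0.056), Mdh2 (-0.17), Glud1 (-0.18), Bckdha (-0.25), Mccc2 (-0.15), Hibadh (-0.23) and Pccb (-0.16). Bckdha was at -0.0055 with at least 10 counts in every library. With a library left out, members near 0 changed sign in Pdhb (-0.028 to 0.057), Dlat (-0.030 to 0.12), Idh1 (-0.13 to 0.18), Dlst (-0.14 to 0.024), Mdh2 (-0.0047 to 0.15), Bckdha (-0.073 to 0.043), Mccc2 (-0.0095 to 0.15), Hibch (-0.093 to 0.0058) and Hibadh (-0.063 to 0.095). A pairing of the libraries by mouse number was not seen (correlations of same-numbered libraries 0.08, -0.21 and -0.0020). These correlations cannot exclude a pairing, because deviations from the mean of 3 libraries are tied to each other. With the replicate block, 3 members and 5 other pathway genes were called higher in the cKO-labelled libraries (6.54% of all genes tested) and 3 and 6 in the Ctrl-labelled ones (6.85%), the calls of Idh3a (adjusted p = 0.0566), Suclg1 (0.0632), Sucla2 (0.112), Pdk2 (0.0626) and Slc25a44 (0.05001) among those lost, and the highest correlation of the library labelled Ctrl 2 was with cKO 1 (0.19), not with its own number. Gpt2, Pcx and Ivd kept their calls in all 13 alternatives.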
